A study of Mus musculus with 4 samples.

Results

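The genes described here encode the contractile apparatus of heart, skeletal and smooth muscle, together with its counterparts in cells that are not muscle. They were 36 genes chosen by name, with earlier results of these arrays in view, and each was represented by its brightest probe set, averaged over the 4 arrays. Of the 36, 32 had a probe set of their own among the 17097 genes named on the array. Myh6, Tagln2 and Actn4 had none in the annotation used here, and the probe set of Tagln is shared with Pcsk7, so these 4 genes have no value. The 36 fall into 10 genes of the heart sarcomere, 4 skeletal muscle isoforms, 7 smooth muscle genes, 5 genes used in several kinds of muscle and 10 non-muscle isoforms.

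Mouse embryonic stem cells, a Snai1 knockout line and a control line labelled F/F, were grown as hanging drops to form embryoid bodies, aggregates that differentiate spontaneously, and then kept in suspension. Cells were dissociated at day 4 and sorted by antibody against Flk1, the VEGF receptor encoded by Kdr that marks mesoderm able to give blood, vessel and heart cells. The 4 groups were knockout Flk1+, control Flk1+, knockout Flk1- and control Flk1- cells, with 1 Affymetrix array each. The knockout Flk1- sample carries both day 4 and day 5 in its labels. The sources do not say whether either line is a single clone. With 1 array per group there is no spread between replicates, so every difference below is a description with no test and no replicate check. In sorted bulk RNA, fewer cells of a type and less RNA per cell cannot be told apart.

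Muscle contracts when myosin thick filaments pull on actin thin filaments. In striated muscle, troponin and tropomyosin on the thin filament make this depend on calcium, while smooth and non-muscle cells switch on myosin by phosphorylating its light chain. Most parts come as families of closely related proteins, with separate genes for heart, slow and fast skeletal muscle, smooth muscle and other cells. Immature heart cells also make several skeletal and smooth muscle isoforms, among them Acta2, so an isoform name is not by itself a cell type.

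Values are log2 expression, and a gene was taken to have signal above 3.19, the 40th percentile of the gene values of all 4 arrays. Kdr followed the sort labels, at 9.03 and 3.88 in the Flk1+ and Flk1- fractions of the knockout and at 8.92 and 4.55 in those of the control. Snai1 was below the floor on all 4 arrays, at 1.88 for the knockout and 2.56 for the control Flk1+ array, and 1.94 for the knockout and 2.42 for the control Flk1- array, so it does not check the genotype. Between 10195 and 10302 genes were above the floor on an array. As a measure of RNA length, Gapdh signal at the 3' end less that at the 5' end was 1.47 in knockout and 2.05 in control Flk1+ cells, and 1.99 in knockout and 1.76 in control Flk1- cells, so the genotypes were in opposite order in the 2 fractions.

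Not every class of the list was present as its name says. Of the 32 genes, 27 were above the floor on at least 1 array. The smooth muscle class was carried by Acta2, Csrp1 and Myl9. Actg2, the enteric smooth muscle actin, Myh11, the smooth muscle myosin heavy chain, and Cnn1, calponin, were below the floor on all 4 arrays, with values from 2.08 to 3.12. Since Myh11 and Cnn1 are defining markers of differentiated smooth muscle, the smooth muscle label goes against the data here. The adult heart troponin I gene Tnni3 and the skeletal actin gene Acta1 were also below the floor throughout, from 2.39 to 3.15. Des, which encodes desmin, was just above it, from 3.34 to 3.67.

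**Figure D1:**
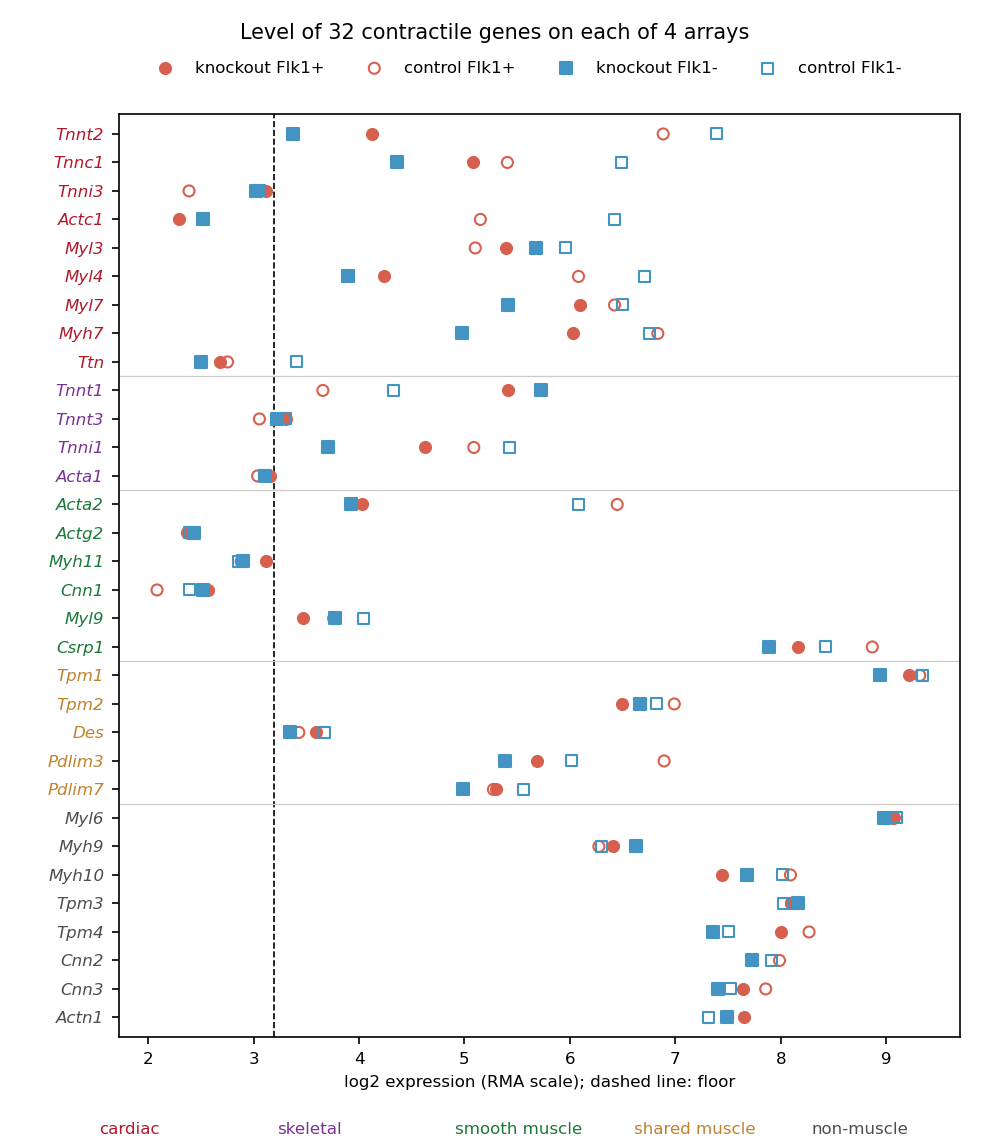
Log2 expression (horizontal axis) of the 32 contractile genes with a probe set of their own, by class, 1 point for each of the 4 arrays. Filled points are knockout and open points control cells. The dashed line is the floor of 3.19. The heart genes Tnnt2, Actc1 and Myl4 show both knockout points far left of both control points, Tnnt1 shows the reverse, and the non-muscle isoforms lie close together.

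In both fractions, Snai1 knockout cells were 2-fold or more lower in the heart genes Tnnt2, Actc1 and Myl4 and in Acta2, and 2-fold or more higher in the slow skeletal troponin T gene Tnnt1. The other heart genes with signal were within 2-fold in Flk1+ cells, and the non-muscle isoforms were within 2-fold in both fractions. Members 2-fold or more lower numbered 5 of 26 in Flk1+ cells, where 0.976% of all 10655 genes were, and 8 of 27 in Flk1- cells, where 0.949% of all 10533 genes were. In each fraction 1 member was higher by that size, against 0.873% of all genes in Flk1+ and 0.389% in Flk1- cells. In both directions together this is 6 members in Flk1+ and 9 in Flk1- cells, where 1.85% and 1.34% of all genes were 2-fold apart. Since the list was made with these comparisons known, the shares of all genes are given for scale only. The Flk1+ split over all genes, 93 higher against 104 lower, became 120 against 84 when each array was centred on its detected genes' median.

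Tnnt2, cardiac troponin T, anchors the troponin complex to tropomyosin and is widely used to mark heart muscle cells. It was at 4.12 in knockout and 6.88 in control Flk1+ cells, and at 3.38 in knockout and 7.39 in control Flk1- cells. These are differences of -2.76 and -4.01, or 6.78-fold and 16.1-fold lower. Both knockout values are below both control values. Its second probe set differed by -2.58 in Flk1+ and -4.04 in Flk1- cells.

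Actc1 encodes the cardiac actin, the main thin filament protein of the embryonic heart. It was at 2.29 in knockout and 5.15 in control Flk1+ cells, and at 2.52 in knockout and 6.43 in control Flk1- cells. Both knockout values are below the floor, so only a bound can be given, at least 3.89-fold lower in Flk1+ and at least 9.41-fold lower in Flk1- cells. Myl4, an essential myosin light chain of the atrium and the embryonic heart, was at 4.23 in knockout and 6.08 in control Flk1+ cells (-1.85), and at 3.89 in knockout and 6.70 in control Flk1- cells (-2.81). A second probe set of Myl4 was below the floor on all 4 arrays and gives no check. Averaging it in gives -0.85 in Flk1+ cells, within 2-fold, and -1.57 in Flk1- cells.

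Acta2, the smooth muscle actin, was at 4.03 in knockout and 6.45 in control Flk1+ cells, and at 3.92 in knockout and 6.08 in control Flk1- cells. That is -2.42 and -2.16, or 5.34-fold and 4.45-fold lower. The probe set behind these values ends in _s_at, which marks probes that can match more than 1 transcript. The other Acta2 probe set was below the floor on all 4 arrays, so it gives no check and the Acta2 difference rests on 1 probe set. Both knockout values are below both control values.

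Tnnt1, the slow skeletal troponin T, was at 5.42 in knockout and 3.66 in control Flk1+ cells, and at 5.73 in knockout and 4.32 in control Flk1- cells. It was thus 1.76 higher in Flk1+ cells, 3.39-fold, and 1.41 higher in Flk1- cells, 2.65-fold, on its 1 probe set. The 2 troponin T genes with signal on all 4 arrays, Tnnt1 and Tnnt2, therefore went opposite ways in both fractions. Tnnt3, the fast skeletal troponin T, stayed at the floor, from 3.06 to 3.31. Tnni3, the neighbour of Tnnt1 on chromosome 7, was below the floor on all 4 arrays.

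For the 5 genes apart in the same direction in both fractions, the 250 bases before the RefSeq start are shown, read 5' to 3', to let the muscle motifs in them be seen. Capitals mark exact matches to the CArG box, bound by serum response factor, to the MCAT element CATTCC, bound by TEAD factors, and to the E2 box CACCTG, bound by Snail and Zeb proteins, each searched on both strands. No matches overlap in these windows. In build GRCm38.p6 the windows are chr1:135836084-135836333 on the plus strand for Tnnt2, the more upstream of its 2 listed starts, chr2:114052876-114053125 on the minus strand for Actc1, chr11:104550413-104550662 on the plus strand for Myl4, chr19:34255374-34255623 on the minus strand for Acta2 and chr7:4515976-4516225 on the minus strand for Tnnt1.
Tnnt2: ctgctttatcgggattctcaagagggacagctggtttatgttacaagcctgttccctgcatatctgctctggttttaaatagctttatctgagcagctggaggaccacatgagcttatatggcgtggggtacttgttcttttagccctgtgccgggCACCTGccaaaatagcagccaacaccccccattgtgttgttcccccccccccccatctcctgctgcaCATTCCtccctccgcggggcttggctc
Actc1: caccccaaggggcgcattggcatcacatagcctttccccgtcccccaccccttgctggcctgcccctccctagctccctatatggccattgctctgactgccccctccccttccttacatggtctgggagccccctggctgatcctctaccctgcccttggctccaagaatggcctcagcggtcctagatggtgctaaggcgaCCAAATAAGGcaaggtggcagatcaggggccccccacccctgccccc
Myl4: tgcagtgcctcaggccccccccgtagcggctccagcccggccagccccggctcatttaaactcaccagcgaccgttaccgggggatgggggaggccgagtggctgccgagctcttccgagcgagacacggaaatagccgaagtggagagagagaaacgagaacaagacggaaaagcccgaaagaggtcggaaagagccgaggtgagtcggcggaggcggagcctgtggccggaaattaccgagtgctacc
Acta2: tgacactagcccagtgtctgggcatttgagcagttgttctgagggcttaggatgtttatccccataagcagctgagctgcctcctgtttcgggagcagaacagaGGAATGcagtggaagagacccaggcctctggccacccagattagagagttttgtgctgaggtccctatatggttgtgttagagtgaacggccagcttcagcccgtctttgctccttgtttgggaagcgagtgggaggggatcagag
Tnnt1: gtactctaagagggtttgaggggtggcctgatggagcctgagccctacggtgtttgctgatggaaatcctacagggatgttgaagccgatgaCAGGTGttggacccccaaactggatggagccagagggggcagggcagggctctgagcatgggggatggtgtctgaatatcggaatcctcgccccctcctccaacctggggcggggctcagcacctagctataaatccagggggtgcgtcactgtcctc

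The Tnnt2 window holds an E2 box that begins 94 bases before the start and an MCAT element at 27 bases, Actc1 a CArG box at 47 bases, and Acta2 an MCAT element at 146 bases. Tnnt1 holds an E2 box at 158 bases and Myl4 has no exact match. The search allowed no mismatch, so sequences a base off the CArG pattern were not counted. Examples are ccctatatgg in the Actc1 and Acta2 windows and ccttgtttgg in the Acta2 window. Across the list, 32 genes had 38 promoter windows in the RefSeq table. A CArG box lay in 7 of these windows, 18.4%, against 1.47% of all 32851 windows of that length. The 7 genes were Actc1, Acta1, Myl3, Myl7, Myl9, Cnn2 and Myl6. Of these, Actc1 was 2-fold or more lower in both knockout fractions and Myl7 in Flk1- cells alone, while Acta1 was without signal and the others were within 2-fold. MCAT elements lay in 13 member windows, 34.2% against 12.6% of all, and E2 boxes in 10, 26.3% against 17.2%. A match in these letters is a description of the sequence and not a bound site.

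**Figure D2:**
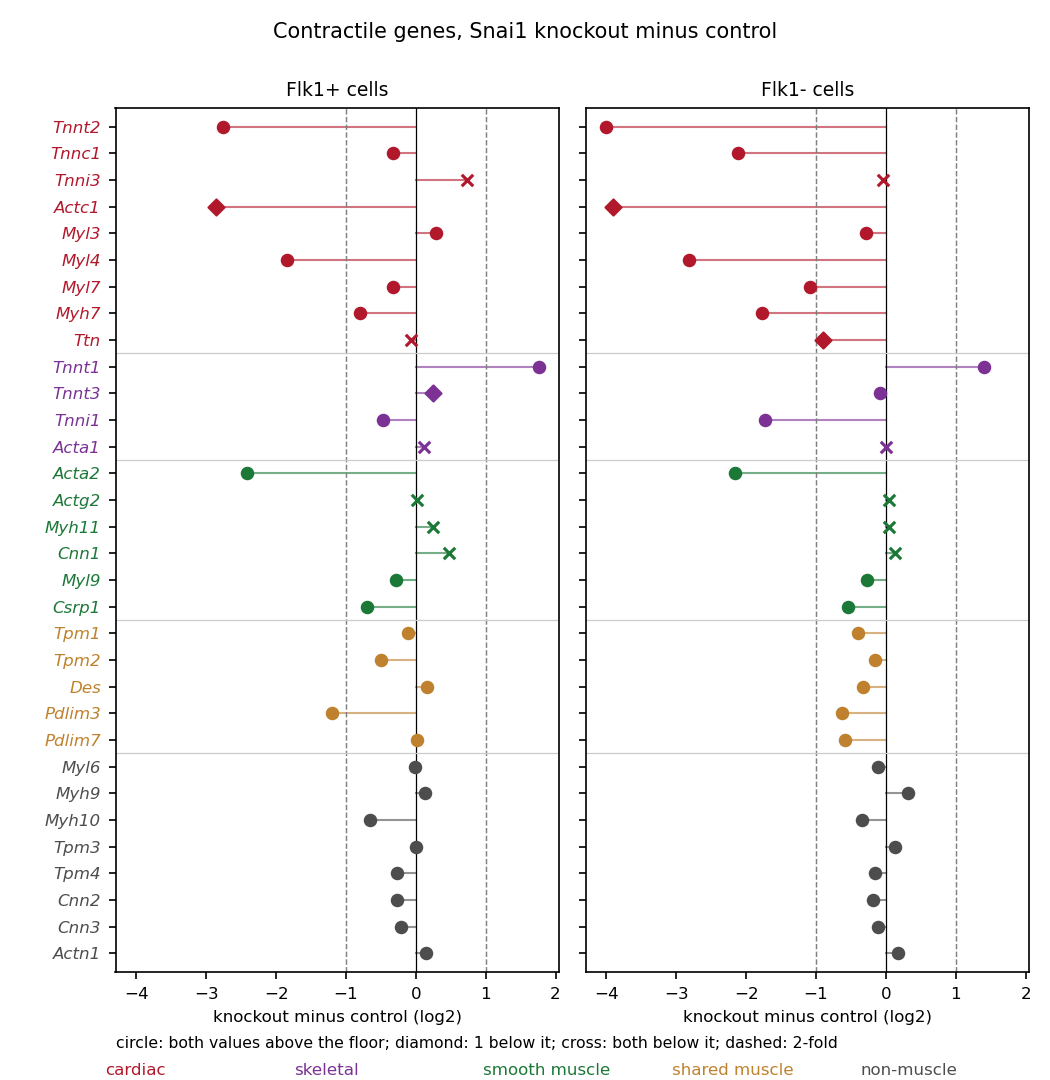
Difference in log2 expression, knockout minus control, for each contractile gene in Flk1+ (left) and Flk1- cells (right), coloured by class. Dashed lines mark 2-fold. Heart genes extend furthest to the left, most of them further in Flk1- cells, and Tnnt1 stands alone on the right beyond 2-fold.

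Tnnc1, Myh7, Myl7 and Tnni1 were 2-fold or more lower in knockout Flk1- cells and closer to control in Flk1+ cells. Tnnc1, the calcium-binding troponin C of heart and slow muscle, was at 5.08 in knockout and 5.41 in control Flk1+ cells, and at 4.36 in knockout and 6.49 in control Flk1- cells, differences of -0.32 and -2.12. Myh7, the slow and fetal heart myosin heavy chain, was at 6.03 in knockout and 6.83 in control Flk1+ cells, and at 4.98 in knockout and 6.75 in control Flk1- cells, differences of -0.80 and -1.77. Its second probe set gave -0.53 and -1.25. Both genes had their lowest value on the knockout Flk1- array, the one whose labels give both day 4 and day 5.

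Tnni1 is the slow skeletal troponin I, which is also the main troponin I of the embryonic heart. It was at 4.62 in knockout and 5.09 in control Flk1+ cells, and at 3.70 in knockout and 5.43 in control Flk1- cells, differences of -0.46 and -1.73. Myl7, the atrial regulatory light chain, was at 6.10 in knockout and 6.42 in control Flk1+ cells, and at 5.41 in knockout and 6.50 in control Flk1- cells, differences of -0.33 and -1.08. Like Tnnc1 and Myh7, these genes were lowest on the knockout Flk1- array.

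Myl3, the ventricular essential light chain also made in slow muscle, was within 2-fold, at 0.29 and -0.28 in Flk1+ and Flk1- cells, on 3 probe sets that agreed in sign within each fraction. Ttn, which encodes the giant spring protein titin, was above the floor on the control Flk1- array alone, at 3.41, and at 2.50 in knockout Flk1- cells, at least 1.16-fold lower. Another Ttn probe set, with 1.89 in knockout and 3.96 in control Flk1- cells, gives at least 1.71-fold lower. In Flk1+ cells Ttn was below the floor in both genotypes.

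Over the heart class as a whole, the median difference was -0.80 in Flk1+ cells, where 6 of 7 genes above the floor were lower, and -1.95 in Flk1- cells, where 8 of 8 were lower. The medians over all genes were -0.048 and 0.039. The same centring gave a heart median of -0.50 in Flk1+ cells. Genes listed for erythroid cells and fibroblasts were mostly lower in the knockout beside the heart genes. Over all genes, 0.976% were 2-fold or more lower in Flk1+ and 0.949% in Flk1- cells. Summed signals here and below take every gene of a list on the array, also those below the floor. Of 7 erythroid genes on the array, 3 of 6 with signal were 2-fold or more lower in Flk1+ and 6 of 7 in Flk1- cells, and the summed linear signal was 53.2 in knockout and 155 in control Flk1+ cells, and 54.0 in knockout and 2864 in control Flk1- cells. Of 12 genes listed for fibroblasts, 4 of 7 with signal were 2-fold or more lower in Flk1+ and 1 of 6 in Flk1- cells. Their summed signal was 543 in knockout and 890 in control Flk1+ cells, and 318 in knockout and 485 in control Flk1- cells. Col1a2, Col6a3, Thy1, Lum and Dcn of this list were below the floor on all 4 arrays, so the list does not by itself mark fibroblasts. The part of either list in the heart differences was not tested.

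Genes used in several kinds of muscle were mostly within 2-fold. The exception was Pdlim3, which encodes a Z-line protein that binds alpha-actinin. It was at 5.69 in knockout and 6.89 in control Flk1+ cells, and at 5.38 in knockout and 6.01 in control Flk1- cells, differences of -1.20 and -0.63. Both knockout values are below both control values. The tropomyosin genes Tpm1 and Tpm2, whose products run along the thin filament, differed by -0.11 and -0.49 in Flk1+ and by -0.40 and -0.16 in Flk1- cells. Pdlim7, a related actin-bound adaptor, differed by 0.020 and -0.58, and Des by 0.16 and -0.33. The class median was -0.11 in Flk1+ and -0.40 in Flk1- cells, with 5 of 5 genes lower in Flk1- cells.

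In the smooth muscle class, Csrp1, a LIM protein of the actin cytoskeleton, was at 8.17 in knockout and 8.87 in control Flk1+ cells, and at 7.88 in knockout and 8.42 in control Flk1- cells, and Myl9, a regulatory light chain of smooth muscle myosin, differed by -0.29 and -0.26. All 3 genes of the class with signal were lower in both fractions, 1 of them, Acta2, by 2-fold or more.

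Non-muscle isoforms, which serve cell shape, division and movement, were within 2-fold throughout. The class had 8 genes above the floor on all 4 arrays, 0 of them 2-fold apart in either fraction, with a median of -0.11 in Flk1+ and -0.12 in Flk1- cells. The largest difference was that of Myh10, non-muscle myosin IIB, at 7.44 in knockout and 8.09 in control Flk1+ cells, -0.65. Its relative Myh9, non-muscle myosin IIA, differed by 0.13 and 0.32 in Flk1+ and Flk1- cells, so the 2 heavy chains went opposite ways by small amounts. Myl6, the essential light chain of non-muscle myosin, was between 8.98 and 9.10 on all arrays. Tpm3, Tpm4, the calponins Cnn2 and Cnn3 and the alpha-actinin Actn1 lay between -0.27 and 0.18 in both fractions.

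**Figure D3:**
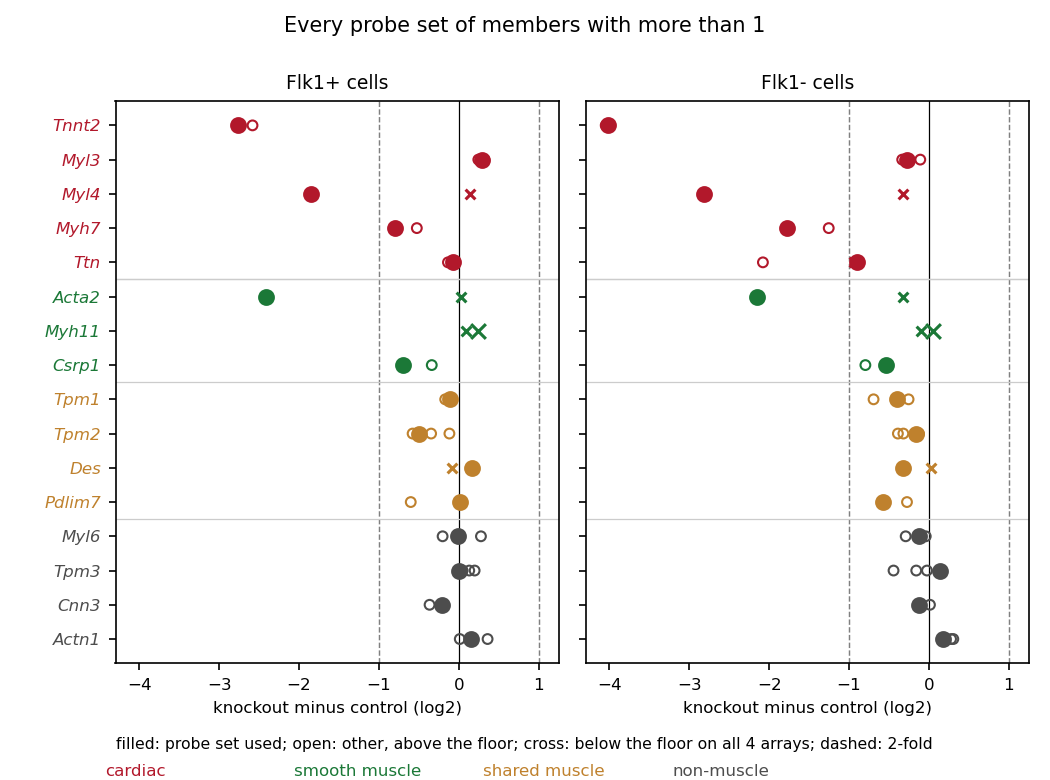
Knockout minus control differences (log2) in Flk1+ (left) and Flk1- cells (right) for every probe set of the contractile genes that have more than 1. Filled circles are the probe sets used, open circles other probe sets above the floor, and crosses probe sets below the floor on all arrays. The 2 probe sets of Tnnt2 lie together, and those of Acta2 and Myl4 that lie near 0 are below the floor.

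For 12 members with at least 2 probe sets above the floor, the probe sets agreed in sign for 9 in Flk1+ and 10 in Flk1- cells. Those that disagreed were Myl6, Pdlim7 and Tpm3 in Flk1+ cells and Cnn3 and Tpm3 in Flk1- cells, all within 2-fold on every probe set. Ttn is among the 9, with both probe sets below the floor on both Flk1+ arrays, so its agreement there gives no check. For genotype, the widest gap within a gene was 1.17, for Ttn in Flk1- cells. There both probe sets were below the floor on the knockout array. By sort, the probe sets agreed in sign for 6 of the 12 members in knockout and 9 in control cells. Ttn is among the 6, with both probe sets below the floor on both knockout arrays. The widest gaps by sort were 0.70 in knockout and 1.21 in control cells. The gap in control cells was that of Ttn, below the floor in Flk1+ cells on both probe sets.

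Whether the knockout difference itself differs between the fractions was not tested. Subtracting the Flk1- genotype difference from the Flk1+ one gives a difference of differences. Among genes with signal on at least 1 array, it was above 0 for 8 of 8 heart genes and 3 of 3 skeletal isoforms. The same held for 3 of 5 genes used in several kinds of muscle, 0 of 3 smooth muscle and 1 of 8 non-muscle genes. Over all genes it was above 0 for 4520 of 10955. Its median was 0.97 in the heart class, 0.35 in the skeletal class and 0.29 in genes used in several kinds of muscle. It was -0.16 in the smooth muscle class, -0.11 in the non-muscle class and -0.070 over all genes. With values raised to the floor where they were below it, it was 1 or more in size for 4 of 27 members, Tnnc1 at 1.80, Actc1 at 1.28, Tnni1 at 1.26 and Tnnt2 at 1.25, where 1.41% of all genes were. Actc1 was below the floor in both knockout fractions, so its value repeats the control sort difference with the sign turned and does not rank the fractions. Ttn was below the floor on 3 of the 4 arrays and does not rank them either.

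By sort, Tnnt2, Tnnc1, Myl4 and Myl7 were higher in Flk1+ cells of the knockout and lower in Flk1+ cells of the control, with Myl7 at -0.073 in the control. None of these genes was 2-fold apart in both genotypes, while Myh7 was higher and Myl3 lower in Flk1+ cells of both. In the knockout the 3 Myl3 probe sets disagreed in sign, from -0.28 to 0.21. Among knockout cells, 5 of 6 heart genes with signal were higher in Flk1+ than in Flk1- cells, with a median of 0.70. Myh7, at 1.06, was the only member 2-fold or more apart, where 1.62% of all 10688 genes were that much higher, 2.17% that much lower and 3.79% either, and its second probe set gave 0.83. These comparisons use the same 4 arrays as those of genotype. Tnni1 was 0.92, Tnnt2 0.75, Tnnc1 0.72 and Myl7 0.69 higher in the knockout Flk1+ fraction.

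In control cells 7 of 8 heart genes were lower in Flk1+ than in Flk1- cells, with a median of -0.64. Actc1 at -1.28 and Tnnc1 at -1.08 were the members 2-fold or more lower, as were 1.51% of all 10622 genes, and 0 members were that much higher, as were 1.2% of all genes, for 2.7% either way. Tnnt2 differed by -0.50 and Myh7 by 0.083. Over all genes the medians of the sort differences were -0.077 in knockout and -0.011 in control cells, and after centring 0.086 and 0.021. The knockout split over all genes, 173 higher against 232 lower, became 223 against 147. Tpm4, a non-muscle tropomyosin, was 0.64 higher in Flk1+ cells of the knockout and 0.76 of the control, and Pdlim3 was 0.31 and 0.88 higher.

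**Figure D4:**
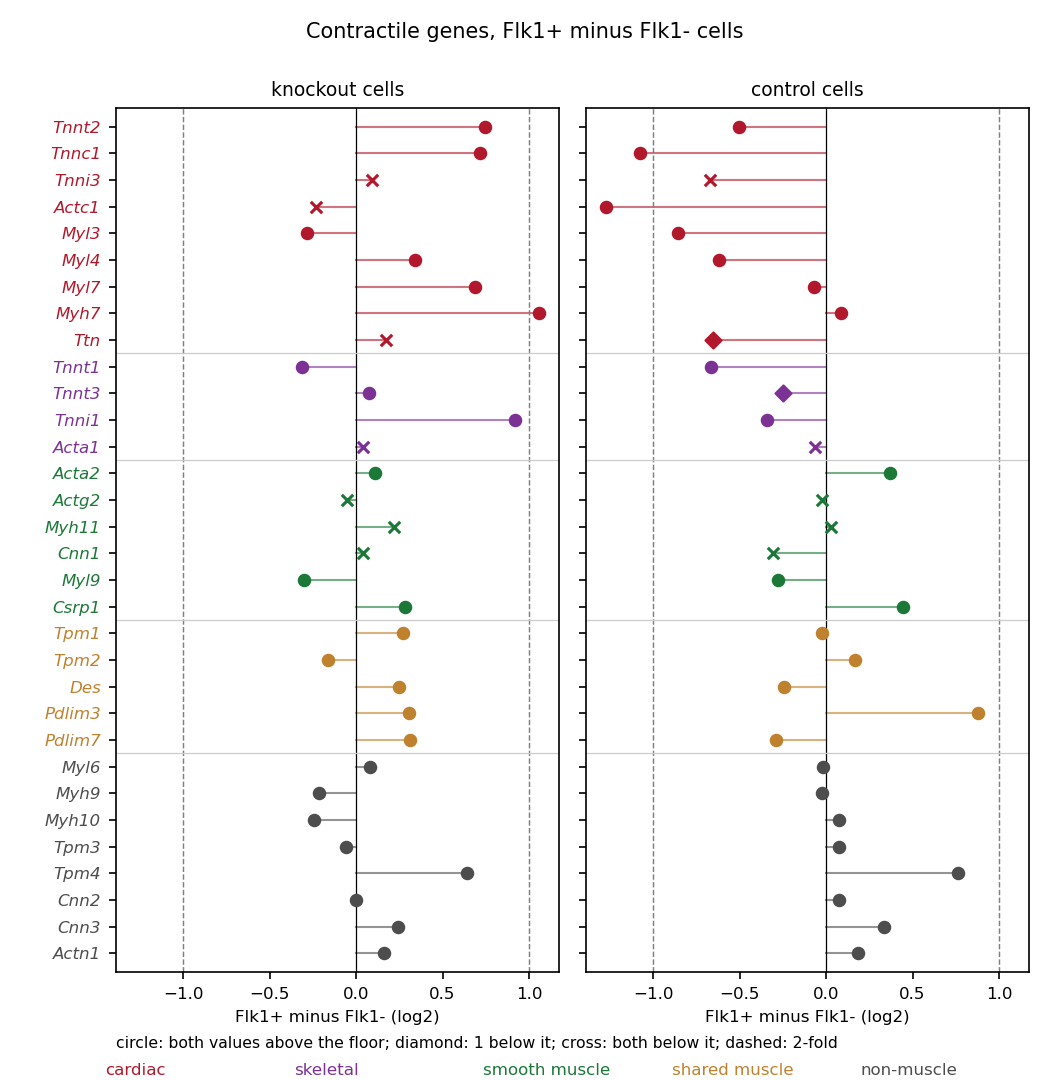
Difference in log2 expression, Flk1+ minus Flk1-, for each contractile gene in knockout (left) and control cells (right), coloured by class, with dashed lines at 2-fold. Tnnt2, Tnnc1, Myl4, Myl7 and Tnni1 lie right of 0 in knockout cells and left of 0 in control cells.

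Other genes of the sarcomere stayed within 2-fold, many of them without signal. Of 22 on the array, 13 were above the floor on at least 1 array, and 0 were 2-fold apart in any of the 4 comparisons. The knockout medians were 0 to 2 decimals in Flk1+ cells, where 6 of 12 genes were lower, and -0.12 in Flk1- cells. Csrp3, a Z-line LIM protein of striated muscle, came closest, at 3.28 in knockout and 4.03 in control Flk1+ cells and at 2.82 in knockout and 3.81 in control Flk1- cells. Mybpc3, cardiac myosin-binding protein C, was at 3.24 in knockout and 3.17 in control Flk1+ cells and at 2.89 in knockout and 3.38 in control Flk1- cells, close to the floor on all arrays. Calcium handling genes, 8 of 12 with signal, had 0 members 2-fold apart and knockout medians of -0.018 in Flk1+ and -0.21 in Flk1- cells. Hrc, a calcium-binding protein of the sarcoplasmic reticulum, was at 3.50 in knockout and 4.37 in control Flk1- cells.

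Of 21 other cytoskeletal genes with signal, 1 was 2-fold or more lower in knockout Flk1- cells and 0 in Flk1+ cells. The shares of all genes that much lower were 0.949% and 0.976%. The 1 gene was Vim, the mesenchymal intermediate filament vimentin. It was at 7.73 in knockout and 8.91 in control Flk1- cells, and at 9.15 in knockout and 9.81 in control Flk1+ cells. The knockout medians of this list were -0.14 in Flk1+ and -0.012 in Flk1- cells.

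Regulators of contractile genes had signal for 21 of 23 genes, with 2 lower by 2-fold or more in Flk1+ and 3 in Flk1- cells. Over all genes, 0.976% were that much lower in Flk1+ and 0.949% in Flk1- cells. Hand1, a transcription factor of lateral plate and heart, differed by -2.49 and -3.21, and Mef2c, a partner of many muscle promoters, by -1.49 and -2.50. Tbx20, a heart transcription factor, differed by -0.85 and -1.02. Myocd, the serum response factor coactivator of heart and smooth muscle, differed by 0.079 and -0.91. The medians of the list were -0.28 in Flk1+ and -0.33 in Flk1- cells.

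Markers of other cell types were set beside Tnnt1, since skeletal muscle is the tissue its name points to. Of 20 skeletal muscle genes, 13 were above the floor on at least 1 array. The myogenic factor genes Myf5, Myf6 and Myog and the muscle progenitor gene Pax7 were below it on all 4 arrays. Myod1, also a myogenic factor gene, was above it on 1 array, at 3.20 in control Flk1- cells. Pax3, Mylpf, Myh3, Mymk, Tnnc2 and Tnni2 of the list were above the floor on all 4 arrays. Pax3 was at 5.00 in knockout and 4.40 in control Flk1+ cells, and at 3.87 in knockout and 4.23 in control Flk1- cells. The list had 0 members 2-fold apart in Flk1+ cells and 1 in Flk1- cells. That gene was Mymx, a muscle cell fusion protein, at 5.23 in knockout and 3.28 in control Flk1- cells and below the floor in Flk1+ cells. The summed linear signal of the list was 197 in knockout and 188 in control Flk1+ cells, and 242 in knockout and 196 in control Flk1- cells. Of the 20 genes summed, 10 were above the floor on each Flk1+ array and 9 on each Flk1- array. Mylpf, a fast skeletal regulatory light chain, was at 5.67 in knockout and 4.75 in control Flk1- cells, while Flk1+ cells had 3.74 in the knockout and 3.82 in the control.

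Of 9 pluripotency genes, 5 of 7 with signal were higher in knockout Flk1+ cells and 9 of 9 in knockout Flk1- cells. Klf4 and Fgf4 were lower in knockout Flk1+ cells, at -0.22 and -0.12. Tnnt1 was higher in both knockout fractions. By sort, the median of the list was -2.16 in knockout and -2.24 in control cells, while Tnnt1 was at -0.31 and -0.67. The summed linear signal over the 9 genes was 303 in knockout and 125 in control Flk1+ cells, and 1344 in knockout and 794 in control Flk1- cells. In knockout Flk1+ cells 5 of 7 genes were 2-fold or more higher, and in knockout Flk1- cells 1 of 9. Over all genes 0.873% and 0.389% were. Of 8 endoderm genes, 7 had signal in Flk1+ cells, with 1 past 2-fold in each direction, and 6 in Flk1- cells, with 1 past 2-fold lower. In Flk1+ cells 5 of the 7 were higher in the knockout, with a median of 0.84, and in Flk1- cells 4 of 6, with a median of 0.44. Their summed signal was 412 in knockout and 277 in control Flk1+ cells, and 584 in knockout and 533 in control Flk1- cells. Endothelial genes had 0 of 10 with signal 2-fold apart in Flk1+ and 0 of 4 in Flk1- cells. Of these, 7 of 10 were lower in knockout Flk1+ cells, with a median of -0.26, and 2 of 4 in knockout Flk1- cells, with a median of 0.066. Their sum was 893 in knockout and 926 in control Flk1+ cells, and 85.7 in knockout and 90.0 in control Flk1- cells. The list includes Kdr, the gene of the sort, at 9.03 in knockout and 8.92 in control Flk1+ cells. Kdr is the brightest of the list there, so the Flk1+ sums partly follow the sort. The part of these cell types in the Tnnt1 difference was not tested.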

How the data were processed

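Log2 expression values per probe set were deposited by the authors, 1 column per sample, and made with RMA and limma of unstated version per the submitters' processing notes. The genome build and annotation the authors used are not given in the sources used here. Amplification began with 50 ng of RNA, per the labels' protocols. Of 45141 probe sets, 104 controls were left out, 28898 were paired with 1 gene in the platform annotation, 551 with several and 15588 with none. Symbols of all 32 genes with a value matched RefSeq. Each gene took the probe set with the highest mean, which left 17097 genes.

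A gene entered a comparison if it was above the 40th percentile, 3.19, on at least 1 of its 2 arrays, and was counted at a difference of 1 log2 or more. Where a value lay below the floor, the fold was computed against the floor and is a lower bound. With 1 array per group no test was run, and the number of arrays limits the precision. The members and the other gene lists were chosen with earlier results of these data known. Values on all arrays are given for the 10 members 2-fold apart in at least 1 comparison, and from each other list for up to 4 genes with the largest genotype difference, some of which are left out, and for defining markers below the floor. Promoter windows are RefSeq's, build GRCm38.p6; 32 of 36 members had one, and Actg2, Myh11, Tagln and Tnnt3 were not matched. The counting step was checked on simulated data. Alternatives were the size rule, the floor, quantile, loess (span 0.3, 3 rounds) or median centring of arrays, and the choice of probe set. Python 3.11.15, numpy 2.4.6, pandas 2.3.3, matplotlib 3.10.9, R 4.3.3 and limma 3.58.1 were used.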

Additional observations from a re-analysis of the deposited data

Results flagged for a closer look

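For 3 members the sort difference, Flk1+ minus Flk1-, had opposite signs in the 2 genotypes and the genotypes' sort differences were at least 1 log2 apart. Tnnt2 was 0.75 in knockout and -0.50 in control cells, a gap of 1.25. Tnnc1 was 0.72 in knockout and -1.08 in control cells, a gap of 1.80. Tnni1 was 0.92 in knockout and -0.34 in control cells, a gap of 1.26. Each sign rests on 1 array per group, and the difference between genotypes was not tested. The knockout Flk1- array, which enters all 3 gaps, is also the array whose labels give both day 4 and day 5.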

How the results depend on the processing

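Values of single members were recomputed under 6 alternatives. Of the values so obtained, 229 moved by less than 0.238 and 10 by more, and 1 with a size of 1 or more changed sign. The 0.238 is a mean over the 4 comparisons and does not measure replicate spread. In each comparison, the gap in difference between a gene's 2 brightest probe sets was taken for 4122 genes. The SD of this gap over genes was divided by the square root of 2. The result was lowest for genotype in Flk1- cells, 0.206, and highest by sort in knockout cells, 0.288. The value that changed sign was the Acta2 difference in Flk1+ cells, 0.028 without probe sets ending in _s_at or _x_at. It rests on a probe set below the floor on all 4 arrays, so this sign has no direction to read. On that probe set the Acta2 sort difference in control cells was -0.35 against 0.37, a sign change counted among the 10. With the mean of probe sets Myl4 was -0.85 in Flk1+ cells, and members lower there numbered 4. With a 1.5-fold rule, members lower in knockout Flk1+ cells numbered 8, members higher in Flk1+ than in Flk1- cells 6 in the knockout and 2 in the control, and members lower 6 in the control. With a 3-fold rule, members higher in knockout Flk1- cells, higher by sort in the knockout and lower by sort in the control numbered 0 each. By sort in the knockout, 2 members were higher with centred arrays and 0 with the mean of probe sets. With no floor, the heart median was -0.33 for genotype in Flk1+ cells and 0.34 by sort in the knockout, and the smooth muscle median was -0.14 and -0.11 for genotype in Flk1+ and Flk1- cells and 0.0025 by sort in the control. With centred arrays the genotype medians in Flk1+ cells were -0.50 for heart and -0.43 for smooth muscle genes. A floor at the median gave 0.65 for the skeletal class in Flk1+ cells. The mean of probe sets gave a heart genotype median of -1.54 in Flk1- cells and a smooth muscle sort median of 0.0096 in the control, which was 0.081 without _s_at and _x_at probe sets. The cause was not tested. No paired analysis was possible because each group has 1 array, and leaving out an array would end its comparison.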
